A study of Mus musculus with 6 samples.

Results

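Cholesterol biosynthesis genes were examined in the cortex of mouse embryos at embryonic day E18.5, with and without Ybx1, the RNA-binding protein that reads 5-methylcytosine in mRNA. The set holds 8 genes, chosen by symbol as sterol synthesis enzymes and genes under control of SREBP2, and all 8 were found among the 17348 genes of the deposited table. Of 6 RNA-seq libraries, 3 were from cKO cortex, which carried Nestin-Cre and a Ybx1 fl/fl genotype, and 3 were from control cortex of littermates, labelled WT, which the study elsewhere gives as Ybx1 fl/fl without Cre. Nestin-Cre acts in neural stem cells and the neurons and glia they give rise to, so vessels and microglia of a cKO cortex keep the gene. Whether a library was made from 1 embryo or from pooled embryos is not given in the sources used here, so the p-values measure the spread between these libraries. Each library is a whole cortex, where fewer cells of a type and less RNA per cell cannot be told apart.

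Cells make cholesterol from acetyl-CoA through mevalonate, isoprenoid pyrophosphates, squalene and lanosterol. The embryonic brain makes most of its own sterol behind the forming blood-brain barrier. When sterol in the endoplasmic reticulum is low, the transcription factor SREBP2, encoded by Srebf2, is released together with Scap from Insig proteins. SREBP2 is then cut and switches on the genes of nearly the whole route. Hmgcs1 makes HMG-CoA, Idi1 interconverts the isoprenoid building blocks and Fdps joins them into farnesyl pyrophosphate. Fdft1 makes squalene, Sqle oxidises it and Lss closes the rings to give lanosterol. Dhcr7 carries out the final reduction to cholesterol, and Insig1 holds Scap back when sterol is plentiful, while being itself a target of SREBP2.

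In GENCODE M21, on build GRCm38, Hmgcs1 lies on the plus strand of chromosome 13 from 119690379 to 119708260 and Idi1 on the same chromosome and strand from 8885501 to 8892451. Fdps lies on the minus strand of chromosome 3 from 89093588 to 89101959, and Fdft1 on the minus strand of chromosome 14 from 63145150 to 63179578. Sqle lies on chromosome 15 from 59315077 to 59331192, Lss on chromosome 10 from 76531588 to 76557138, Dhcr7 on chromosome 7 from 143823145 to 143848410 and Insig1 on chromosome 5 from 28071363 to 28078662, each on the plus strand. The genes are therefore dispersed, and none is on a sex chromosome.

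RefSeq promoter windows of GRCm38.p6, from 250 bases before to 50 bases after a transcription start, were at hand for 5 of the 8 genes, namely Hmgcs1, Idi1, Lss, Dhcr7 and Insig1. They were searched on both strands for TCACNCCA, the core letters of a sterol regulatory element, and for CCAAT, the letters bound by NF-Y, a usual partner of SREBP2. The sterol element core was present in 1 of the 5 genes, Hmgcs1, against 4.75% of the 13719 genes of the table that had a window. CCAAT, read on the opposite strand as ATTGG, was present in all 5, against 42.5% of the 13719 genes, and in 11 of 13 other enzymes of the route with a window. These matches are a description of the letters in the windows, and no binding was measured. For each gene the CCAAT match nearest before the start is shown, since these letters are shared by the 5 genes, and for Hmgcs1 also the sterol element core found in no other member's window, with the motif in capitals. All stretches are read on the plus strand, which is the coding strand of these 5 genes.
Hmgcs1, sterol element core, chr13:119690203-119690232: acgtcaccgtcTCACCCCActtcccaggtc
Hmgcs1, CCAAT, chr13:119690295-119690324: ccccgcctctcATTGGctgaaagcggatcg
Idi1, chr13:8885581-8885610: tccaaggtgccATTGGctggcgaccgacag
Lss, chr10:76531532-76531561: gtgatgctctgATTGGccgagctcgcatcg
Dhcr7, chr7:143830154-143830183: atccacttccgATTGGtcgtctgtgacctc
Insig1, chr5:28071185-28071214: gccctcctcccATTGGctccggcggcctca
The sterol element core of Hmgcs1 begins 137 bases before the start and its CCAAT match 45 bases before. The match of Idi1 begins 14 bases, that of Dhcr7 49 bases, that of Lss 62 bases and that of Insig1 216 bases before the start. Dhcr7 has 3 windows in the table, for 3 starts, and 1 of them holds CCAAT.

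The libraries held from 15091951 to 16885451 estimated counts, and the 8 genes together took from 0.137% to 0.161% of them. Ybx1, the deleted gene, was counted 16184, 22152 and 13950 times in control replicates 1 to 3 but 387, 394 and 390 times in cKO replicates 1 to 3, so each library matched its label. The Y-linked Eif2s3y had at least 1422 counts in every control library and at most 1 in every cKO library, so sex and genotype cannot be told apart in this comparison. The markers of cortical projection neurons, among them Neurod6 and Tbr1, were present in every library. Control replicate 2 stood apart from its group, with a chi-square per degree of freedom of 41.5 and 65.4 against control replicates 1 and 3, which differed by 10.6, while the cKO libraries differed from each other by 3.52 to 8.997. Of 52 cell type markers tested in 10 lists, 0 passed an adjusted p of 0.05 in edgeR's quasi-likelihood test. An unadjusted p under 0.05 was found for 3 of the 52, against 6.62% of all genes tested. The smallest was that of Slc17a7, a marker of cortical projection neurons named after its values were seen. Slc17a7 was higher in the cKO, with a log2 fold change of 0.73 (edgeR unadjusted p = 5.8e-05, adjusted p = 0.072). The lists' median log2 fold changes ran from -0.17 for the oligodendrocyte lineage to 0.39 for meninges and fibroblasts. Of the latter list 3 of 5 genes were tested. Its median was the value of Col1a1, at 12 to 22 counts per library (standard error 0.309), between Igf2 at 0.0140 and Col1a2 at 0.42.

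Per transcript length, on the TPM scale of the authors, the genes of the set spanned about an order of magnitude. Hmgcs1 had the highest level, from 372 to 492 TPM over the 6 libraries with a median of 469 TPM. It lay above every other member in every library. Fdps followed with a median of 262 TPM, Fdft1 with 196 TPM and Sqle with 149 TPM, and the ranges of neighbours in this order overlapped. Within each library, however, Fdps lay above Fdft1 and Fdft1 above Sqle. Insig1 with 82.7 TPM and Idi1 with 78.7 TPM lay below Sqle without overlap and could not be separated from each other. Dhcr7 with 49.4 TPM and Lss with 39.4 TPM were the least abundant, below Idi1 without overlap. Their ranges overlapped as well, though Dhcr7 lay above Lss within each library. For comparison, Srebf2 had a median of 146 TPM.

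**Figure D1:**
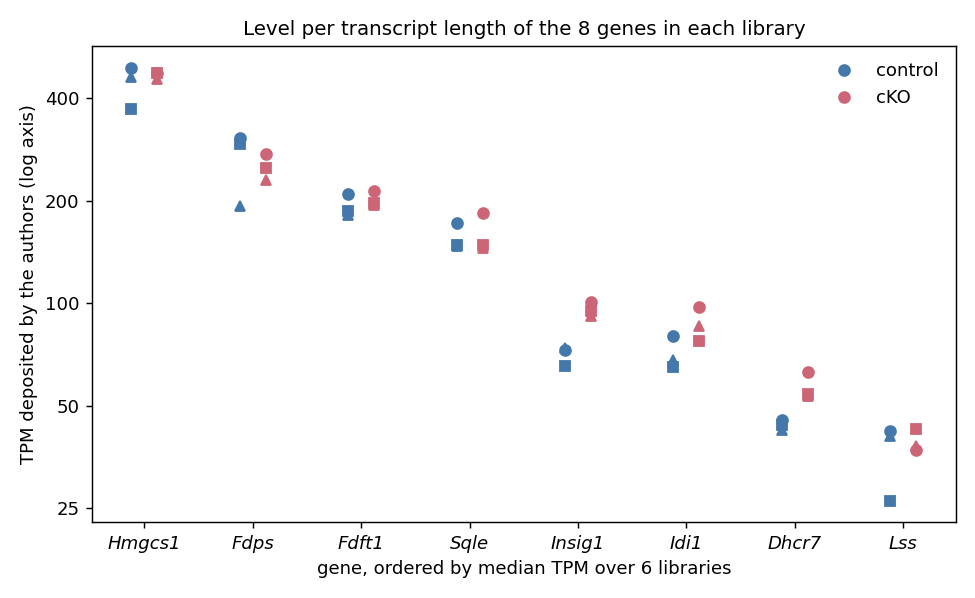
TPM of the 8 genes (log axis) in each control (blue) and cKO (red) library, ordered by the median over 6 libraries; circles, squares and triangles are replicates 1, 2 and 3. Hmgcs1 lies at 372 to 492 TPM, above all others, and Lss and Dhcr7 lie at the bottom, with the lowest value, 26.3 TPM, for Lss in control replicate 2.

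The transcript levels of the 8 genes in cKO and control cortex were then compared. None of the 8 passed the adjusted threshold of 0.05 in edgeR's quasi-likelihood test, where 0.0737% of the 13570 genes tested did, 0.0221% higher and 0.0516% lower in the cKO. All 8 had passed the filter on low counts. Insig1 had an unadjusted p under 0.05, or 1 of 8 (12.5%), against 6.62% of all genes tested in either direction and 3.14% in that of Insig1, higher in the cKO. This count was 0 without cKO replicate 1, where the share of all genes was 3.90%, and 2 without control replicate 2 (12.1% of all genes) or control replicate 3 (14%). With either of the other tools run, DESeq2 on counts and limma on TPM values, 0 of the 8 passed the adjusted threshold, and 1 and 2 had an unadjusted p under 0.05, against 4.98% and 10.3% of all genes. The fitted log2 fold changes ranged from -0.24 to 0.30, with 4 above and 4 below 0 and a median of -0.0134, beside a median of 0.0027 over all genes tested. The groups were separate in 1 of 8 genes, against 14.3% of all genes tested (7.35% higher and 6.93% lower in the cKO), and 3 libraries against 3 cannot give a two-sided exact permutation p below 0.1.

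**Figure D2:**
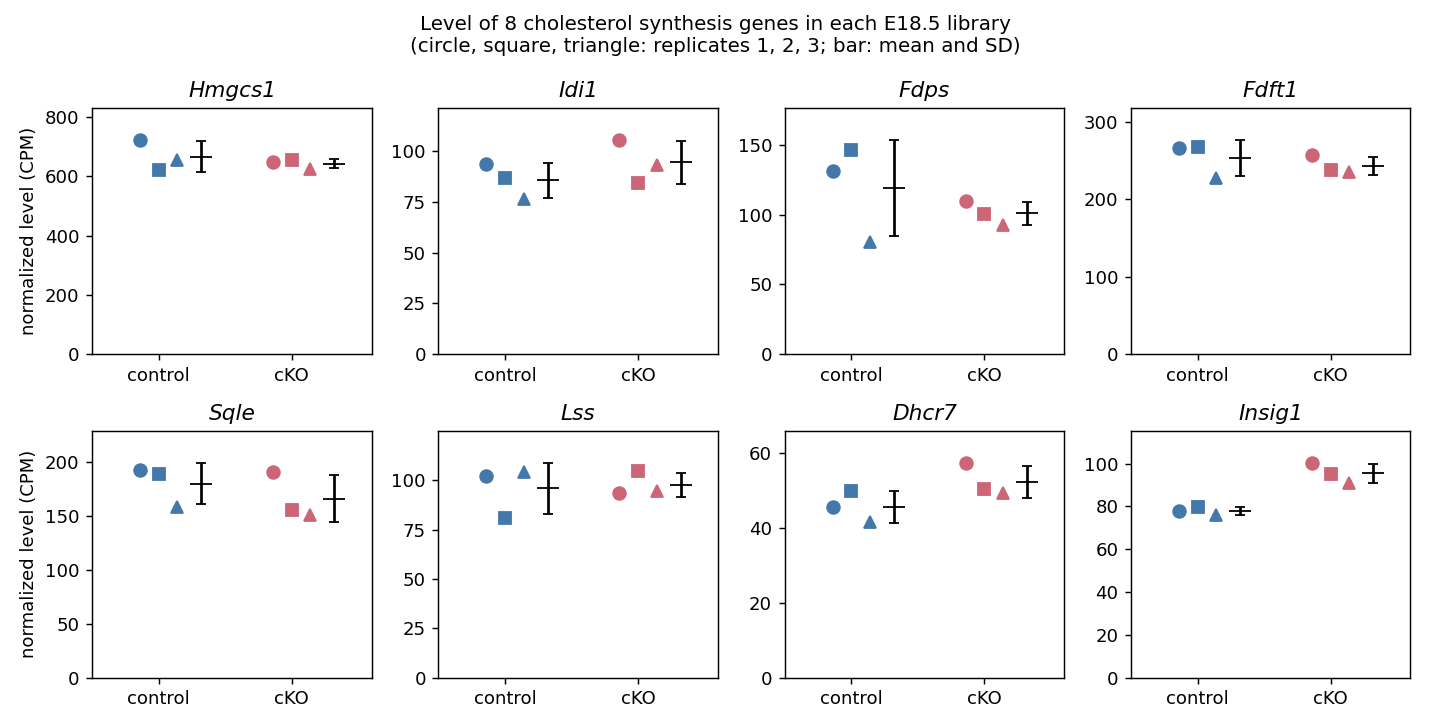
Normalized level (CPM, the count as a share of the TMM-scaled library) of each gene in the 3 control (blue) and 3 cKO (red) libraries, with the mean and SD beside the points. Insig1 is the gene in which the groups do not overlap, and Fdps is the one with the widest control group on a log2 scale, from 80.3 to 146 CPM.

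The early enzymes, from HMG-CoA to farnesyl pyrophosphate, showed no common direction. Hmgcs1 was at 723, 621 and 654 CPM in control replicates 1 to 3 and at 649, 654 and 624 CPM in the cKO. All cKO libraries lay between the lowest and the highest control library. Its log2 fold change was -0.05 (standard error 0.109, edgeR adjusted p = 0.937), and the 95% interval of the ratio ran from 0.814 to 1.14. Idi1 was at 93.5, 86.8 and 76.5 CPM in control and at 106, 84.5 and 93.4 CPM in cKO cortex. The cKO replicate 1 was above every control library and the other two lay within the control range. Idi1 had a log2 fold change of 0.14 (standard error 0.125, edgeR adjusted p = 0.863). Its estimated counts were not whole numbers in any library, as for Fdft1, whereas those of the other 6 genes were whole in all 6 libraries. The levels of Idi1 and Fdft1 are uncertain to the extent that shared reads were split by the counting.

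Within the control group, on a log2 scale, Fdps was the most variable gene of the set. The control libraries had 131, 146 and 80.3 CPM of Fdps, and those of the cKO had 110, 100.1 and 92.9 CPM. Control replicate 3 was the lowest and control replicate 2 the highest of the 6, with the cKO libraries in between. The log2 range within the control group was 0.86, against 0.24 within the cKO group. The log2 fold change of -0.24 (standard error 0.2003, edgeR adjusted p = 0.863) varied with the control libraries used: it was -0.46 without control replicate 3 and -0.0709 without control replicate 2, with adjusted p-values of 0.225 and 0.904. In control replicate 3 the 5 radial glia markers also summed to 466 CPM, against 652 and 658 CPM in the other control libraries. In the cKO they summed to 515 to 591 CPM. Control replicate 3 also had the lowest control sums for astrocytes (171 CPM), oligodendrocyte lineage (76.1 CPM), interneurons and striatum (382.5 CPM) and erythroid cells (982 CPM). It had the highest control sums for cortical projection neurons (2483 CPM), endothelial cells (225.5 CPM), and meninges and fibroblasts (68.8 CPM). The part of these differences in the level of Fdps was not tested.

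The enzymes from squalene to lanosterol had log2 fold changes between -0.12 and 0.0254, with intervals that included 0. Fdft1 was at 267, 268 and 227 CPM in control and at 257, 238 and 235.5 CPM in cKO libraries. The log2 fold change was -0.0621 (standard error 0.112, edgeR adjusted p = 0.928), with a ratio between 0.804 and 1.14. Here the cKO libraries again lay inside the control range. Sqle, often the second controlled step of the route, was at 192, 189 and 158 CPM in control and at 191, 155 and 151 CPM in cKO libraries. Each group had high and low libraries, and the groups overlapped. Its log2 fold change was -0.12 (standard error 0.133, edgeR adjusted p = 0.900). Lss was at 102, 81.0 and 104 CPM in control and at 93.4, 105 and 94.5 CPM in cKO libraries. Control replicate 2 was the lowest, and the remaining 5 libraries lay close together. Lss had a log2 fold change of 0.0254 (standard error 0.125, edgeR adjusted p = 0.976), and it turned to -0.0819 without control replicate 2.

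Dhcr7 and Insig1 had the highest positive log2 fold changes of the set, and neither passed the adjusted threshold. Dhcr7, the enzyme whose loss causes Smith-Lemli-Opitz syndrome, was at 45.6, 49.9 and 41.5 CPM in control and at 57.4, 50.4 and 49.3 CPM in cKO libraries. A single control library, replicate 2, reached into the cKO range. The means were 45.7 ± 4.18 CPM in control and 52.4 ± 4.38 CPM in cKO cortex (SD, n = 3 per group). The log2 fold change was 0.20 (standard error 0.117, edgeR adjusted p = 0.819), and the 95% interval of the ratio, 0.955 to 1.38, included no change. On the TPM scale the groups of Dhcr7 did not overlap, with 42.5 to 45.3 TPM in control and 53.5 to 62.6 TPM in cKO libraries. The median gene stood 0.14 higher in cKO on the log2(TPM + 1) scale, and relative to this shift Dhcr7 was at 0.22.

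In edgeR with all 6 libraries and no correction for transcript length and GC content, Insig1 had the smallest p of the set. The control libraries had 77.8, 79.6 and 75.9 CPM of Insig1, and those of the cKO had 100.2, 95.1 and 91.1 CPM. All 3 cKO libraries lay above all 3 control libraries, and both groups were tight, at 77.8 ± 1.89 and 95.5 ± 4.53 CPM (SD, n = 3 per group). The two-sided exact permutation test gave p = 0.1, the smallest it can give here. The log2 fold change was 0.30 (standard error 0.0976, edgeR unadjusted p = 0.0142, adjusted p = 0.569), a ratio of 1.23 with a 95% interval from 1.05 to 1.43 that is not adjusted for the number of genes. By unadjusted p it ranked 339 among 13570 genes. Insig1 thus did not pass the test across genes, and, as given above, 7.35% of all genes tested had cKO libraries that all lay above the control libraries. The unadjusted p of Insig1 in edgeR was 0.0555 without cKO replicate 1 (adjusted p = 0.997). Its log2 fold change stayed between 0.26 and 0.33 when any 1 library was left out, and the adjusted p between 0.136 and 0.9999, the lowest being without control replicate 2. The 6 markers of astrocytes, cells that make much sterol in the later brain, summed to 269, 217 and 171 CPM in control and 283, 233 and 231 CPM in cKO libraries, with overlapping groups. Slc1a3 alone was at 105 to 163 CPM, while Aqp4 was at most at 6.38 CPM and Gfap at 2.70 CPM. In edgeR 0 of the 6 passed the adjusted threshold, and 4 had a log2 fold change above 0, against 50.55% of all genes tested. Gfap and Aldh1l1 were below 0, at -0.38 and -0.36. In 2 of the 6 (33.3%) every cKO library was above every control library, against 7.35% of all genes tested. The same held for 2 of 5 microglia markers (40%), and all 5 of those had a log2 fold change above 0. Among the 6 astrocyte markers Aqp4 had the only unadjusted p under 0.05 (edgeR adjusted p = 0.718), and none of the 6 was at 0 in all libraries. Their part in the level of Insig1 was not tested.

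**Figure D3:**
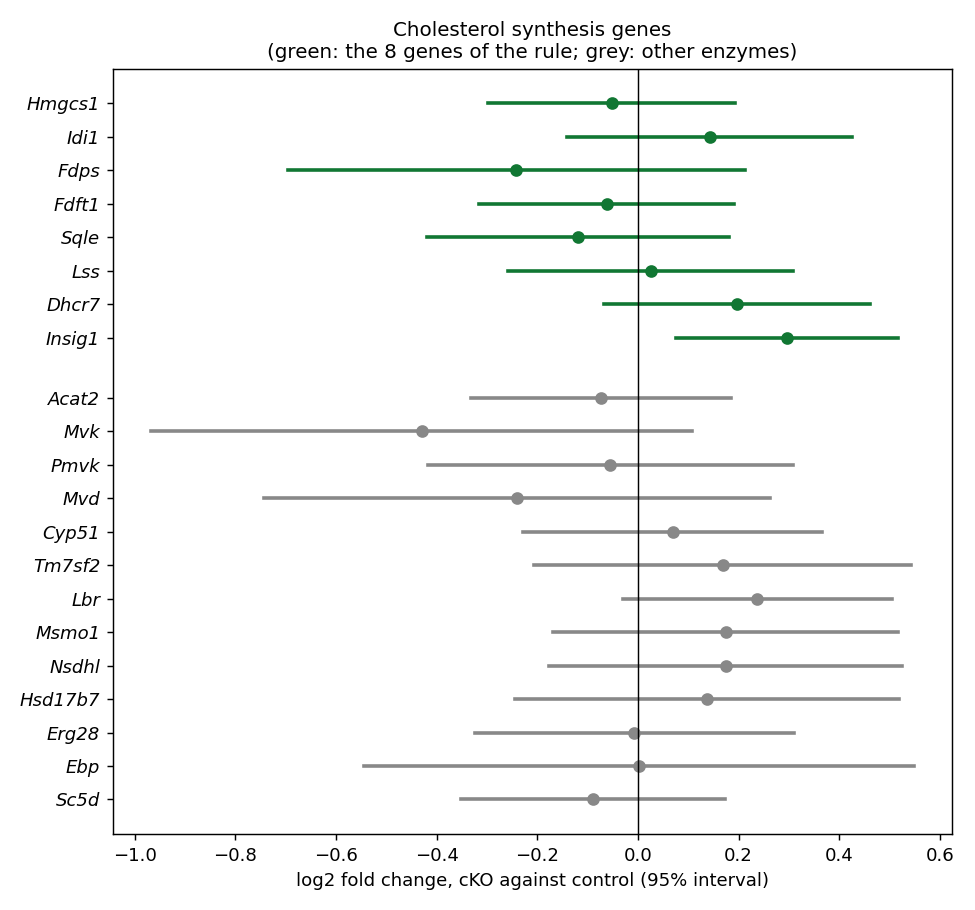
Log2 fold change of cKO against control with its 95% interval for the 8 genes (green) and other enzymes of the route (grey, not all drawn). Among the 8 genes the interval of Insig1, 0.0751 to 0.52, lies above 0 and the others span it; no gene shown passed the adjusted threshold.

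Across the 6 libraries the 8 genes did not move as a block. Of the 28 pairs of genes, 17 had a positive Pearson r of log2 CPM, and the median r was 0.31, from -0.62 to 0.96. These values describe 6 libraries that share depth and composition. The highest values joined Fdps with Fdft1 (r = 0.96), Fdft1 with Sqle (r = 0.93) and Fdps with Sqle (r = 0.82), the enzymes around squalene. Fdps and Fdft1 were lowest in control replicate 3, and Sqle was lowest in cKO replicate 3. Dhcr7 went with Insig1 (r = 0.85) and with Idi1 (r = 0.79), and these genes were highest in cKO replicate 1. Lss ran against Fdps (r = -0.62) and Fdft1 (r = -0.56), and was nearest to Hmgcs1 (r = 0.60). The arrangement in these subsets was made after the values were seen. Summed over the 8 genes, the level was 1633, 1521 and 1417 CPM in control and 1563, 1481 and 1431 CPM in cKO libraries. The spread of this sum within each group was larger than the distance between the groups.

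**Figure D4:**
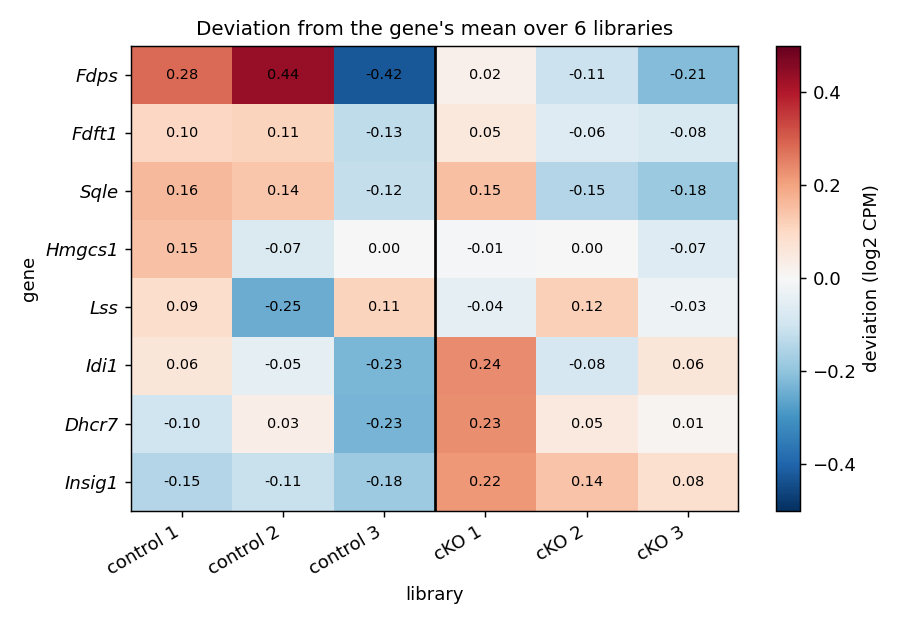
Deviation of each gene, in log2 CPM, from its own mean over the 6 libraries; control libraries are left and cKO libraries right of the line, and red marks higher values. Fdps ranges from -0.42 in control replicate 3 to 0.44 in control replicate 2, whereas Insig1 is negative in all 3 control and positive in all 3 cKO libraries.

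The genes of the table most like the mean of the 8 over the 6 libraries were Sh2d5 (r = 0.98), Plcd4 (r = 0.98), Pxdc1 (r = 0.98), Syt11 (r = 0.98) and Nudt2 (r = 0.98), out of 13562 other genes. None of these belongs to the sterol lists. Among the 15 other enzymes of the route the median r with that mean was 0.72, beside 0.034 for all other genes. Msmo1, a demethylating enzyme of the route, was at 0.90 and ranked 118, Nsdhl was at 0.90 and ranked 122, and Srebf2 was at 0.85 and ranked 265. Of the 15 enzymes 13 were above 0, and Sc5d (r = -0.27) and Lbr (r = -0.14) ran against the mean. Among the genes of SREBP sensing and processing, Insig2 (r = -0.37), Mbtps2 (r = -0.20), Mbtps1 (r = -0.17) and Rnf139 (r = -0.09) did so. The other genes of that list were above 0. Apart from Srebf2 and Rnf139, these genes were named after their values were seen.

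The remaining genes of sterol and isoprenoid metabolism were read from 6 lists of 71 genes, of which 69 were tested. In edgeR's quasi-likelihood test 0 of the 69 passed the adjusted threshold, and 3 (4.35%) had an unadjusted p under 0.05. DESeq2 and limma also gave 0. At an unadjusted p under 0.05, DESeq2 had 3 of 71 (4.23%, against 4.98% of all genes) and limma 10 of 69 (14.5%, against 10.3%). With 1 library left out the edgeR count at an unadjusted p under 0.05 ran from 1 to 10. It was 1 without cKO replicate 2 (4.41% of all genes) or cKO replicate 3 (3.57%), and 3 without cKO replicate 1 (3.9%). Without control replicate 1 it was 2 (5.48%), and without control replicate 2 it was 5 (12.1%). Without control replicate 3 it was 10 (14%). Groups were separate for 8 of the 69 genes (11.6%), and the median log2 fold change was 0.0221. In edgeR with all 6 libraries both shares were below those of all genes tested, 6.62% and 14.3%.

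Of the 15 other enzymes of cholesterol synthesis, 8 had a log2 fold change above 0 and 7 below, with a median of 0.0023. Mvk, the kinase that acts on mevalonate, was at 21.1, 30.1 and 14.7 CPM in control and at 15.4, 18.6 and 15.1 CPM in cKO libraries. Mvk had the largest difference of this list, a log2 fold change of -0.43 (standard error 0.238, edgeR adjusted p = 0.806), and its highest value, like that of Fdps, was in control replicate 2. The X-linked Nsdhl and Ebp, for which sex and genotype cannot be told apart either, had log2 fold changes of 0.17 and 0.0023.

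Among the sensors and processing enzymes of SREBP, 6 of 9 log2 fold changes were above 0, with a median of 0.0401. Srebf2 was at 334, 309 and 254 CPM in control and at 298, 297 and 269 CPM in cKO libraries. The cKO values lay within the control range, and the log2 fold change of Srebf2 was -0.0555 (standard error 0.128, edgeR adjusted p = 0.945). The largest difference of this list was that of Rnf139, a ubiquitin ligase of the endoplasmic reticulum, at 0.23 (standard error 0.134, edgeR adjusted p = 0.816). Of 5 other genes under SREBP2 control, 2 were above 0.

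Of the genes that handle sterol after its synthesis, 3 of 14 tested (21.4%) had an unadjusted p under 0.05 in edgeR, against 6.62% of all genes, and none passed the adjusted threshold. The count was 1 without control replicate 1 (5.48% of all genes) and 2 without control replicate 2 (12.1%). It was 4 without control replicate 3 (14%) and 3 without cKO replicate 1 (3.9%). Without cKO replicate 2 it was 0 (4.41%), and without cKO replicate 3 it was 1 (3.57%). The 14 tested genes of efflux, turnover and transport had a median log2 fold change of 0.0468, with 8 above 0, and Ch25h and Cyp27a1 were too low to be tested. Groups were separate for 4 of the 14 (28.6%), 3 higher and 1 lower in the cKO, against 14.3% of all genes tested. Abca1, the transporter that exports cholesterol to apolipoproteins, was at 103, 67.1 and 107 CPM in control and at 128, 134 and 128 CPM in cKO libraries. The cKO libraries were all above the control libraries, as for 7.35% of all genes tested, and control replicate 2 was by far the lowest. Abca1 had a log2 fold change of 0.49 (standard error 0.169, edgeR unadjusted p = 0.0170, adjusted p = 0.596). The other 2 genes with an unadjusted p under 0.05 were Npc2 and Scarb1, named after their values were seen. Npc2 carries cholesterol out of lysosomes, and Scarb1 is a lipoprotein receptor. Their log2 fold changes were -0.33 and -0.41, with edgeR adjusted p-values of 0.672 and 0.752.

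The branches that use isoprenoids for protein prenylation, dolichol and ubiquinone gave 7 of 14 log2 fold changes above 0 and a median of 0.0010. Pdss2, a subunit of the enzyme that makes the ubiquinone side chain, had the largest difference, -0.27 (standard error 0.188, edgeR adjusted p = 0.850). Of the 12 genes of fatty acid synthesis controlled by SREBP1, 8 were above 0, with a median of 0.0420. Fasn, the fatty acid synthase, was at 787, 692 and 608 CPM in control and at 521, 660 and 551 CPM in cKO libraries. Its groups overlapped, and the log2 fold change was -0.27 (standard error 0.140, edgeR adjusted p = 0.796), the largest of that list.

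**Figure D5:**
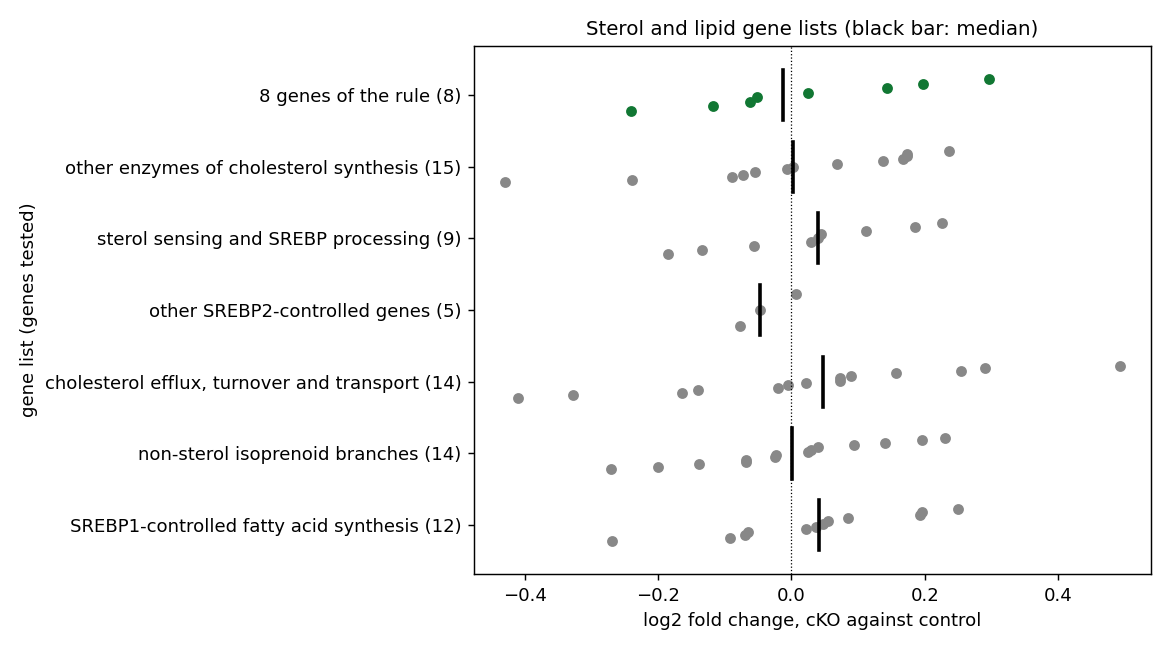
Log2 fold changes of cKO against control for the 8 genes (green) and for 6 lists of related genes (grey), with the number of genes tested in brackets and a black bar at each list's median. All medians lie between -0.0473 and 0.0468, and the highest point is Abca1 at 0.49; a few genes that enter the medians are not drawn.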

How the data were processed

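The authors deposited 1 table with estimated counts, TPM values and FPKM values per gene and library, and the authors' group means of these, which were not used. The submitters' processing notes name HISAT2 2.2.1, Bowtie2 2.4.5, RSEM 1.3.1 and the builds GRCm38 and mm10, without their roles. Strandedness and annotation are not given in the sources used here. Of the estimated counts deposited, 89.4% were whole numbers. They were rounded, filtered by filterByExpr and scaled by TMM, and groups were compared over all genes in R 4.3.3 by the quasi-likelihood test of edgeR 4.0.16, with p-values adjusted after Benjamini and Hochberg. CPM is the count as a share of the TMM-scaled library. Deposited TPM values served for levels between genes, and deposited FPKM values were not used.

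The standard error is the size of the log2 fold change over the root of F. At a floor of 3 counts a library resolves 0.178 to 0.199 CPM, which covers counting error only. The common biological coefficient of variation was 0.147. The scripts were tested on simulated data. Transcript length and GC content, from GENCODE M21, were matched for 96.7% of genes, and a smooth trend on both was removed with mgcv 1.9.3 in 1 alternative. Other alternatives were RLE factors, DESeq2 1.42.0, other filters, the replicate number as a block, limma 3.58.1 on log2(TPM + 1) and each library left out.

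The members and lists were chosen with earlier results of these data known. Besides the 8 genes, the text names Ybx1 and Srebf2, any listed gene past the threshold, the largest log2 fold change of each list, and the 5 genes most correlated with the mean of the 8. Any other gene is named as an example, for its sex linkage or after its values were seen. No samples were left out, and some results under this rule are not reported here.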

Additional observations from a re-analysis of the deposited data

How the results depend on the processing

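None of the 8 genes, and none of the 69 related genes tested, passed the adjusted threshold in any of the 14 alternatives, and the cause of the changes below was not tested. Over all genes, the number called was 10, but 94 with DESeq2, 54 with the length and GC correction, 22 with that correction and the replicate block, and from 8 to 122 with 1 library left out (122 without control replicate 2, 19 without control replicate 3). The median log2 fold change of the 8 genes was 0.12 on the log2(TPM + 1) scale, where the median of all genes was 0.14, so that relative to all genes it was -0.0246; with 1 library left out it ran from -0.0467 to 0.0433. The number of the 8 genes whose groups did not overlap was 2 on the TPM scale, Dhcr7 and Insig1, where 21.6% of all genes were separate, and 1 to 3 with 1 library left out: 3 without control replicate 2 (29.9% of all genes separate), 3 without control replicate 3 (33.2%), 2 without cKO replicate 1 (21.5%) and 2 without cKO replicate 3 (18.8%).

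Idi1, Fdps, Dhcr7 and Insig1 kept their direction in all 14 alternatives, and Insig1 ranged from 0.24 to 0.44 with adjusted p-values from 0.136 to 0.9999. The 0.44 was on the log2(TPM + 1) scale, where Insig1 was at 0.30 relative to the median of all genes. Fdps was at -0.16 with the length and GC correction (edgeR adjusted p = 0.740). The direction of Lss reversed to -0.0200 when length and GC content were corrected for, to -0.0200 when the replicate block was added to this, to -0.0819 without control replicate 2 and to -0.0282 without cKO replicate 2. With 1 library left out Lss ranged from -0.0819 to 0.0889 and Hmgcs1 from -0.1001 to 0.0111, the latter reversed without control replicate 1. Sqle ran from -0.23 without cKO replicate 1 to -0.0565 without cKO replicate 3, Idi1 from 0.0570 without cKO replicate 1 to 0.22 without cKO replicate 2, and Fdft1 from -0.14 without control replicate 3 to -0.0226 without control replicate 2. Of the 69 related genes, 11 (15.9%) had an unadjusted p under 0.05 with the length and GC correction and block, against 11.6% of all genes, and 6 (8.70%) with the correction alone, against 10.9%. On the TPM scale Hmgcs1 was at 0.0954, Fdft1 at 0.0710 and Sqle at 0.0275, each below the shift of all genes.

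The replicate numbers were not taken to pair the libraries, since same-numbered control and cKO libraries deviated from their group means with r = 0.082, 0.052 and 0.217 and not every library went best with its own number. With the replicate block 11 genes were called, 0 of the 8 among them, their median log2 fold change was -0.0088 and Insig1 was at 0.30 (edgeR adjusted p = 0.565).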
